A study of Bos taurus with 12 samples.

Results

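Expression of 9 genes of the apoptosis machinery was followed in the mammary gland (MG) of underfed and control cows. These were BCL2, BCL2L1, MCL1, BAX, BAK1, BAD, BID, BCL2L11 and CASP8, fixed by gene symbol, with earlier results of these data already known. They were found through the RefSeq accession given with each array probe, which matched 20 of the 43653 probes on the array to the 9 members, out of 12639 genes named in this way. Only CASP8 of this group is a caspase. Biopsies came from 12 multiparous Holstein cows in early lactation, at 24 ± 3 d in milk. The control cows (CONT, n = 6) ate a lactation diet ad libitum. The restricted cows (REST, n = 6) received a mix in which barley straw made up 48% of the dry matter, for 4 d. All 12 cows had 50 µg of lipopolysaccharide (LPS) infused into 1 healthy rear gland on day 3, and that tissue was sampled 24 h later, so that no group shows the unchallenged gland. Each cow gave 1 biopsy and 1 one-color Agilent array. The cows of both groups are separate animals, numbered here 1 to 6 within a group.

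Cells carry out apoptosis along routes that meet at the mitochondrion. BCL2, BCL2L1 (BCL-XL) and MCL1 hold pro-apoptotic relatives in check, BAX and BAK1 open the outer mitochondrial membrane, and the BH3-only proteins BAD, BID and BCL2L11 (BIM) tilt the balance between them. CASP8 is the initiator caspase of the death receptor route, which it links to the mitochondrion by cutting BID. In MG, apoptosis of the secretory epithelium is best known from involution after milking stops.

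All levels derive from the spot intensities of the deposited scanner files. They are given as log2 signal minus the log2 of the 75th percentile on that array, so that a negative value lies below the percentile. Levels of different probes are not comparable, and only differences between cows are compared. The 75th percentile was 577.1 to 1183.9 intensity units in CONT and 386.9 to 1082.0 in REST, and 57.6 to 76.0% and 63.2 to 78.1% of the probes, respectively, were called well above background. The arrays lay on 3 slides. Slide 1 held 3 CONT and 1 REST arrays and had brighter negative controls (37.7 to 58.2) than slide 2 (18.2 to 19.6), which slide 3 resembled. Of the luminal epithelial marker genes, all 7 that could be matched (KRT8, KRT18, KRT19, EPCAM, CDH1, LALBA and ELF5) were well above background on all 12 arrays.

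No difference between REST and CONT passed the test for any of the 9 members. In limma's moderated test over all 43653 probes, the adjusted p of all 20 member probes was 0.9999 (Benjamini-Hochberg), and 0% of the probes on the array passed 0.05 (lowest adjusted p = 0.777). The familywise Westfall-Young adjustment called 0 probes as well. At an unadjusted p under 0.05 there were 0 member probes, against 1143 probes or 2.62% of all (1.74% higher and 0.875% lower in REST). The members' unadjusted p ranged from 0.179 to 0.953, while exact two-sided permutation of the cows gave p of 0.149 to 0.97 for single probes, with 0.00216 as the lowest value possible. The groups overlapped in all 20 probes, and failed to overlap in 0.128% of all probes. The REST mean was higher for 12 of the 20 member probes and for 46.1% of all probes. With the brightest probe standing for each gene, 4 members had a higher and 5 a lower mean in REST, while 43.5% of all named genes had a higher one. The median log2 difference was -0.017 over the 9 members and -0.034 over all named genes. All 20 of the 95% confidence intervals lay inside a 2-fold change in either direction, with bounds of -0.99 and 0.99 on the log2 scale at the widest. Of all probes, 65.3% had intervals inside these limits.

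**Figure D1:**
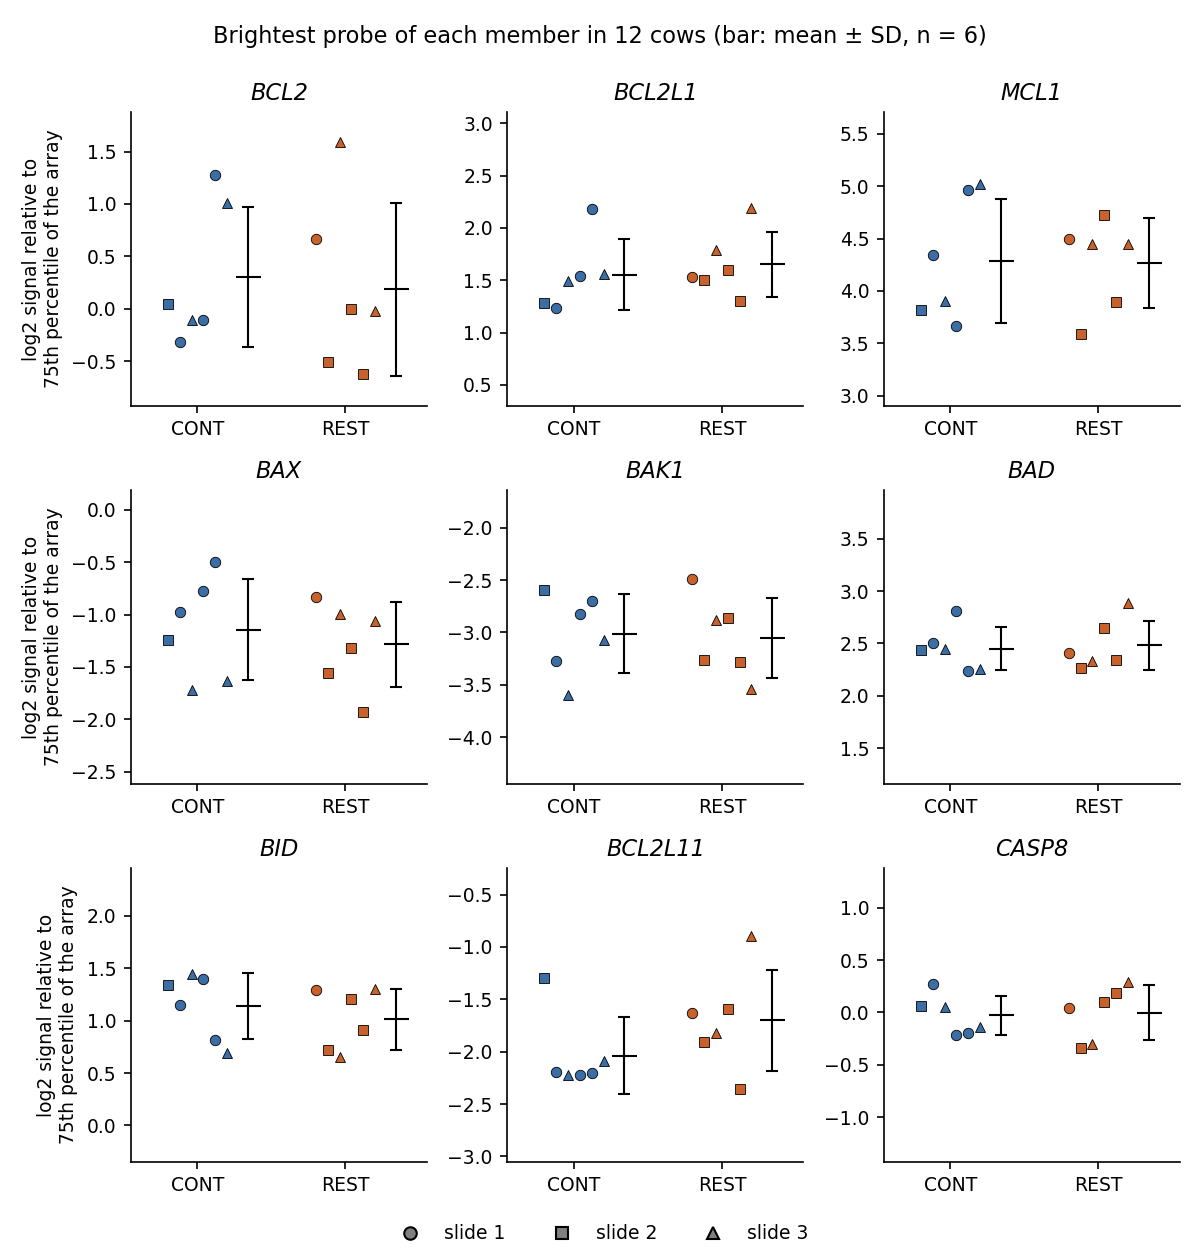
Log2 signal of the brightest probe of each member (vertical axis, relative to the 75th percentile of the array, all panels 2.8 units high) in 6 CONT (blue) and 6 REST (orange) cows, with the symbol giving the slide and the black bar the mean ± SD. The groups overlap in all 9 panels, and BCL2 is spread most widely, from -0.62 to 1.59.

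**Figure D2:**
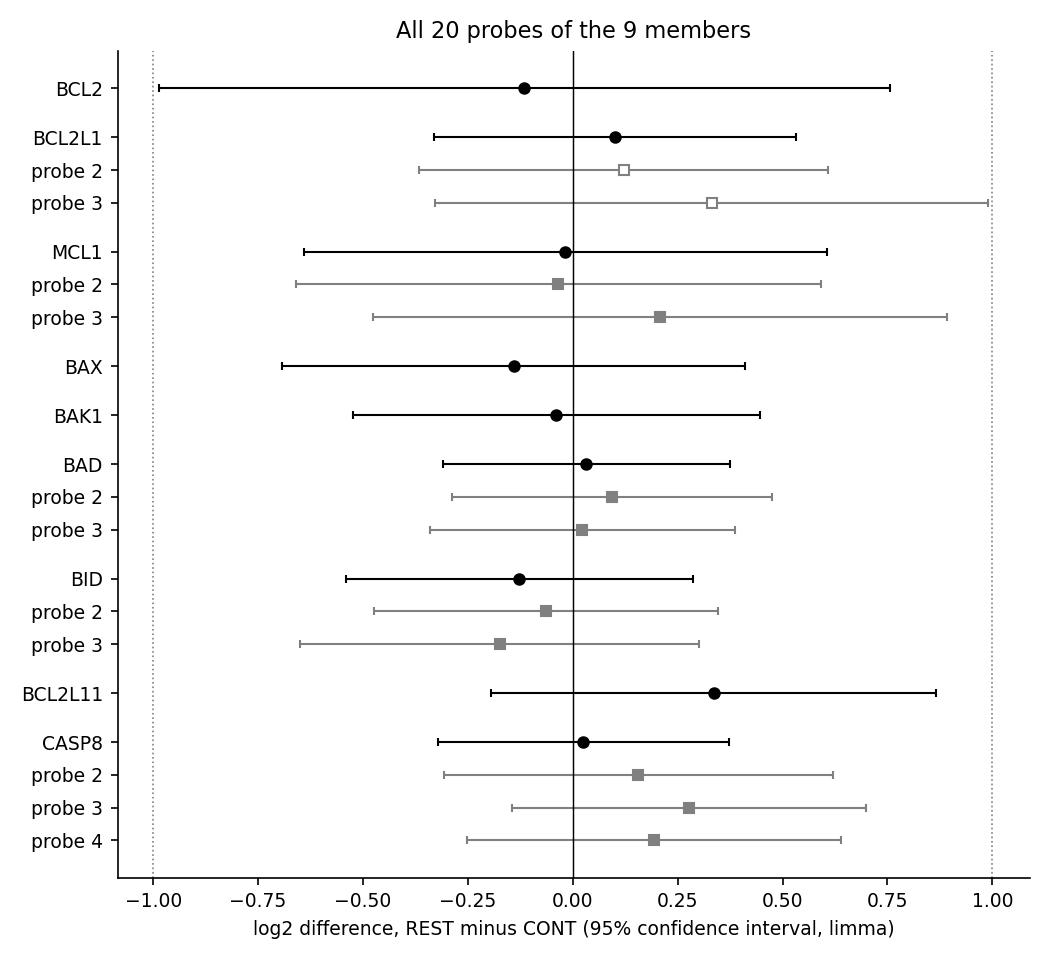
Log2 difference REST minus CONT (horizontal axis) with its 95% confidence interval from limma for the 20 member probes, where circles are the brightest probe of a gene, squares its other probes and open symbols probes not well above background on all 12 arrays. All intervals include 0 and stay between the dotted lines of a 2-fold change.

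The anti-apoptotic members overlapped widely between the diets, and BCL2 varied most from cow to cow. BCL2 (NM_001166486), the founding member of the family, had 1 probe, with a lowest, median and highest log2 signal of -0.31, -0.032 and 1.28 in CONT and of -0.62, -0.012 and 1.59 in REST. In both groups, a few cows stood well above the rest: CONT cows 5 and 6 at 1.28 and 1.01, and REST cows 3 and 1 at 1.59 and 0.67. The log2 difference was -0.12 (standard error 0.40), or 0.923-fold with a 95% interval of 0.505 to 1.69-fold. BCL2 varied more between cows of a group (SD 0.752) than 90% of the 9082 genes whose brightest probe was well above background on all arrays, for which the median SD was 0.335.

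BCL2L1 (NM_001077486), which keeps the outer mitochondrial membrane closed, had 3 probes. The brightest lay between 1.24 and 2.18 in CONT, with a median of 1.52, and between 1.30 and 2.19 in REST, with a median of 1.56, a log2 difference of 0.10 (standard error 0.20). Apart from CONT cow 5 (2.18) and REST cows 3 and 6 (1.79 and 2.19), all values lay between 1.24 and 1.60. Its dimmer probes differed by 0.12 (standard error 0.22) and 0.33 (standard error 0.30). Their signal cleared the background call on 5 arrays of CONT and 6 of REST, and on 2 of CONT and 3 of REST, respectively. The other 18 member probes were so on all 12 arrays.

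MCL1 (NM_001099206), a short-lived protein that must be made continuously to keep a cell alive, also had 3 probes. Its brightest probe had a lowest, median and highest value of 3.67, 4.13 and 5.02 in CONT and 3.59, 4.45 and 4.73 in REST. On this probe, CONT cows 5 and 6 were the highest of all 12 cows, at 4.96 and 5.02, as they were within CONT for BCL2. The log2 difference was -0.017 (standard error 0.29), which is 0.988-fold with a 95% interval of 0.642 to 1.52-fold. The other MCL1 probes differed by -0.034 (standard error 0.29) and 0.21 (standard error 0.32), and the 3 probes followed each other over the cows (Pearson r = 0.875 to 0.962).

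The pore-forming effectors had 1 probe each. BAX (NM_173894) had a lowest, median and highest log2 signal of -1.72, -1.11 and -0.50 in CONT, and of -1.93, -1.19 and -0.83 in REST. The log2 difference was -0.14 (standard error 0.25), or 0.907-fold (95% interval 0.619 to 1.33-fold), and 3 of the 6 REST cows lay above the CONT mean. The 4 arrays of slide 1 had the highest BAX signals, at -0.98 to -0.50. Those of slide 2 had -1.93 to -1.24 and those of slide 3 had -1.72 to -0.99. Slide 1 held mostly CONT arrays, and an effect of the slide on BAX was not tested.

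BAK1 (NM_001077918) had -3.60, -2.95 and -2.59 as its lowest, median and highest value in CONT, and -3.54, -3.07 and -2.49 in REST. Its log2 difference was -0.039 (standard error 0.22), with a 95% interval of 0.695 to 1.36-fold. The cows of both groups covered nearly the same range for this gene.

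Among the BH3-only members, BAD varied least between cows of a group (SD 0.223, with a smaller SD in 21.8% of the 9082 genes). BCL2L11 had the largest difference of the 9 members, though not without REST cow 3, without REST cow 6 or on slides 2 and 3 alone. BAD (NM_001035459), whose protein is kept inactive by phosphorylation when growth factors are present, had values of 2.24 to 2.81 in CONT, with a median of 2.44, and of 2.27 to 2.88 in REST, with a median of 2.38. Its 3 probes differed by 0.032 (standard error 0.16), 0.093 (standard error 0.18) and 0.023 (standard error 0.17). The 95% interval of the brightest probe, 0.807 to 1.30-fold, was among the narrowest of the members.

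BID (NM_001075446), the substrate of CASP8, had values of 0.69 to 1.44 in CONT, with a median of 1.25, and of 0.65 to 1.30 in REST, with a median of 1.06. All 3 BID probes had lower means in REST, by -0.13 (standard error 0.19), -0.064 (standard error 0.19) and -0.17 (standard error 0.22), each within the spread between cows. On the brightest BID probe, CONT cows 5 and 6 were the lowest of CONT, at 0.82 and 0.69, although they were its highest for BCL2 and MCL1. On the second BID probe, CONT cow 2 (-0.95) lay below CONT cow 5 (-0.90).

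BCL2L11 (NM_001075310), which binds all anti-apoptotic relatives, had values of -2.23 to -1.29 in CONT, with a median of -2.20, and of -2.35 to -0.89 in REST, with a median of -1.73. In CONT, 5 cows lay between -2.23 and -2.09, and CONT cow 1 stood apart at -1.29. In REST, 5 of 6 cows were above the CONT mean, and REST cow 6 was the highest of all at -0.89. The log2 difference was 0.34 (standard error 0.25), or 1.26-fold with a 95% interval of 0.873 to 1.82-fold (unadjusted p = 0.194 with limma, exact permutation test p = 0.21). It rested partly on single cows. Without CONT cow 1 the difference was 0.48 (unadjusted p = 0.0544, limma), and without REST cow 6 it was 0.17 (unadjusted p = 0.437, limma). With normexp background correction it was 0.18, and on slides 2 and 3 alone it was 0.15.

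CASP8 (NM_001045970) was measured with 4 probes, the brightest of which did not follow the others. The brightest lay between -0.22 and 0.27 in CONT, with a median of -0.044, and between -0.34 and 0.29 in REST, with a median of 0.073, a log2 difference of 0.025 (standard error 0.16). The other 3 probes had higher means in REST, by 0.16 (standard error 0.21), 0.28 (standard error 0.19) and 0.19 (standard error 0.21), in order of brightness. Over the 12 cows, with group means subtracted, these 3 probes correlated with each other (r = 0.741 to 0.931), while the brightest had r of -0.108, 0.014 and -0.238 with them. CONT cow 2 shows the discord, since it was the highest of CONT on the brightest probe (0.27) and near the lowest on probe 4 (-2.06). Which transcripts each probe detects was not tested. For BID, by comparison, the 3 probes had r of 0.78 to 0.827, and for BAD 0.475 to 0.902.

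**Figure D3:**
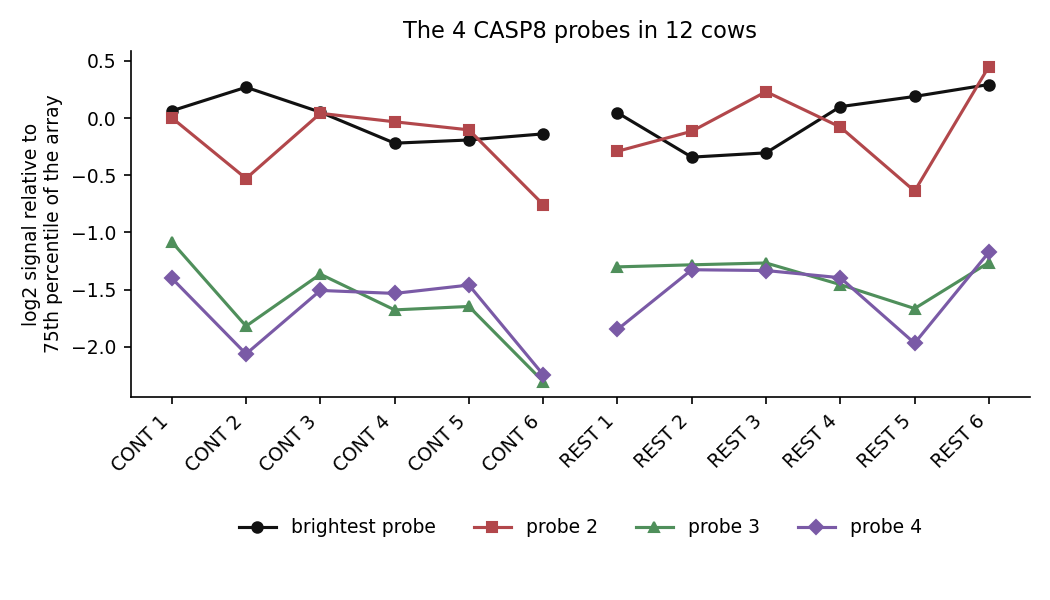
Log2 signal (vertical axis, relative to the 75th percentile of the array) of the 4 CASP8 probes in each of the 12 cows, with lines joining the values of 1 probe within a group and no order among cows. Probes 2, 3 and 4 dip together in CONT cows 2 and 6 and in REST cow 5, and in none of these cows is the brightest probe the lowest of its group.

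Slides did not hold equal numbers of both diets, so each difference was also computed inside each slide, as a value without a test. Slide 1 compared 3 CONT with 1 REST array, slide 2 compared 1 CONT with 3 REST arrays, and slide 3 compared 2 with 2. For BCL2 the differences were 0.38, -0.42 and 0.33 on slides 1, 2 and 3, and for BCL2L1 they were -0.13, 0.18 and 0.46. MCL1 gave 0.17, 0.25 and -0.013. None of the 9 members kept its sign over all slides. The differences of BAX were -0.082, -0.36 and 0.65, and those of BAK1 were 0.45, -0.54 and 0.13. BAD gave -0.11, -0.016 and 0.26, and BID gave 0.17, -0.40 and -0.091. BCL2L11 was higher in REST on slides 1 and 3 (0.57 and 0.79) and lower on slide 2 (-0.66), and CASP8 gave 0.094, -0.081 and 0.038. With slide as a block, all 9 members still had unadjusted p over 0.05, and BCL2, MCL1, BAX and BAK1 changed sign, to 0.12, 0.12, 0.13 and 0.023.

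No pair of members was shown to vary together from cow to cow. A total of 36 pairs were compared over the 12 cows with group means subtracted, 24 of which had a positive r, 2 an unadjusted p under 0.05 for Pearson's r and 0 an adjusted one. The highest r was that of BAD and BID, both sensors upstream of BAX and BAK1 (Pearson r = 0.739, permutation p = 0.00975, adjusted p = 0.346). Spearman's rho for this pair was 0.741 (permutation p = 0.0114, adjusted p = 0.137). BCL2 and MCL1, both inhibitors, followed (r = 0.691, permutation p = 0.0192, adjusted p = 0.346), with rho 0.776 (permutation p = 0.00534, adjusted p = 0.137). Leaving out the 2 cows farthest from the median gave r of 0.761 for BAD and BID and 0.734 for BCL2 and MCL1. BCL2 and BCL2L1 had r = 0.548 (permutation p = 0.073, adjusted p = 0.479) and rho = 0.755 (permutation p = 0.00938, adjusted p = 0.137). With slide removed as well, r was 0.756 for BAD and BID and 0.605 for BCL2 and MCL1, and the highest was 0.841, for BCL2 and BAK1, which had 0.483 before (permutation p = 0.134, adjusted p = 0.479; rho = 0.469, permutation p = 0.145, adjusted p = 0.491).

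The members were also set against 9 lists of cell type markers, using the mean log2 signal of the markers well above background on all arrays. In a biopsy, fewer cells of a type and less RNA per cell cannot be told apart. Of 81 relations, 3 had an adjusted p under 0.05 for Pearson's r. BCL2 varied with the 5 myoepithelial markers (KRT5, KRT14, ACTA2, MYH11 and OXTR), with r = 0.862 (permutation p = 0.0003, adjusted p = 0.0134) and rho = 0.804 (permutation p = 0.00384, adjusted p = 0.0778). Here r was 0.727 without the 2 cows farthest from the median and 0.969 with slide removed. BID went with the 5 macrophage markers CD68, CD163, CD14, CSF1R and MSR1 (r = 0.808, permutation p = 0.00033, adjusted p = 0.0134), with rho = 0.839 (permutation p = 0.00128, adjusted p = 0.0518), r = 0.733 without the 2 cows and 0.835 with slide removed. MCL1 went against FABP4, the only adipocyte marker left (r = -0.754, permutation p = 0.00055, adjusted p = 0.0148). Its rho was -0.867 (permutation p = 0.00041, adjusted p = 0.0332), and r was -0.728 without the 2 cows and -0.763 with slide removed. MCL1 also had r = -0.669 with the endothelial list (permutation p = 0.00296, adjusted p = 0.0599; rho = -0.643, permutation p = 0.0288, adjusted p = 0.182) and r = -0.718 with the plasma and B cell list (permutation p = 0.00461, adjusted p = 0.0622; rho = -0.811, permutation p = 0.00359, adjusted p = 0.0778). Without the 2 cows these were -0.673 and -0.602. BAD had r with the macrophage list of 0.786 (permutation p = 0.0042, adjusted p = 0.0622; rho = 0.769, permutation p = 0.00698, adjusted p = 0.0901). BCL2L11 had r = -0.791 with the T cell list (permutation p = 0.011, adjusted p = 0.112), but rho was -0.322 (permutation p = 0.332, adjusted p = 0.585) and r was -0.13 without the 2 cows, so that this relation rests on those cows.

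**Figure D4:**
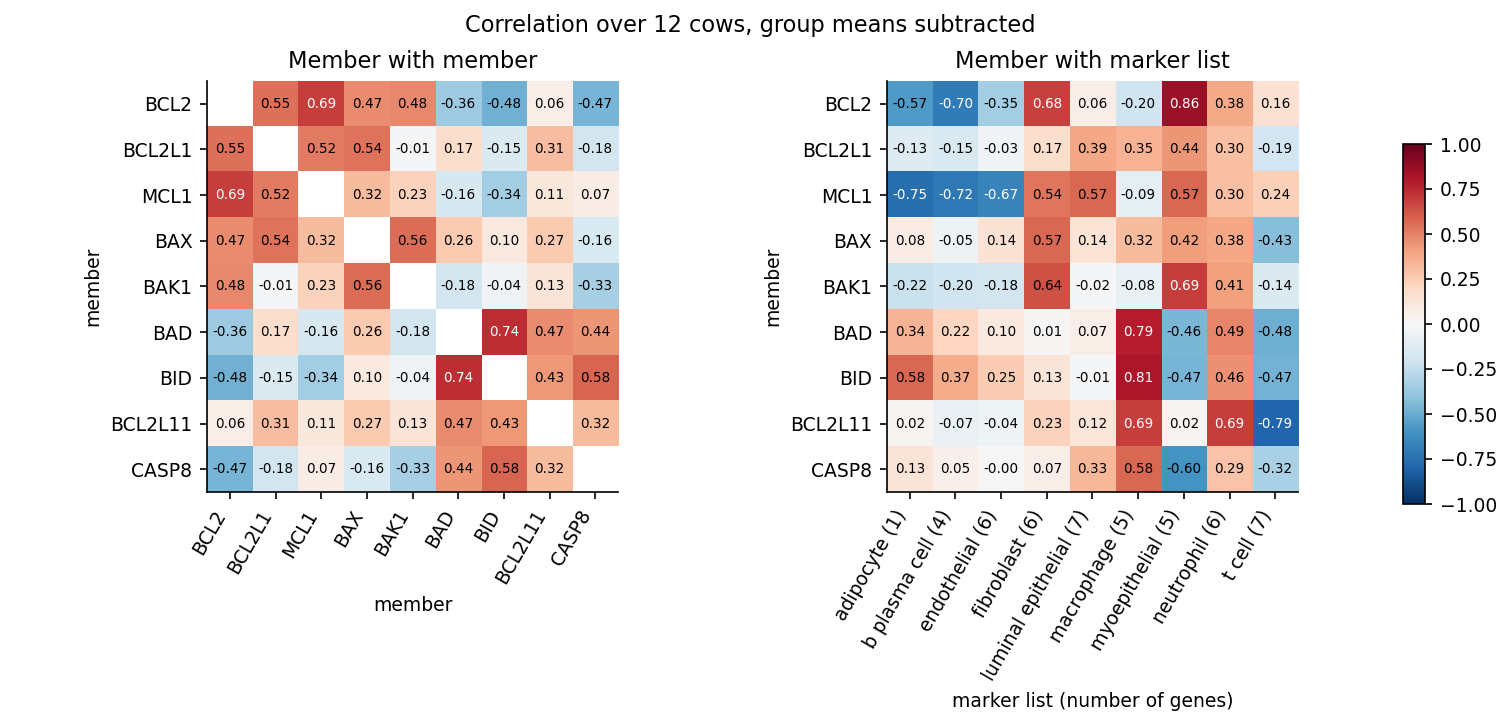
Pearson r over the 12 cows, with group means subtracted, between the brightest probes of the 9 members (left) and between each member and the mean of each marker list, with the number of markers in brackets (right). The darkest fields are BCL2 with myoepithelial markers (0.86), BID with macrophage markers (0.81) and BCL2L11 with T cell markers (-0.79).

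For each member, the genes with the most similar pattern over the 12 cows were taken from 8999 genes, by group-centered Pearson r and as a description without a test. BCL2 was closest to CXXC5 (r = 0.976, rho = 0.965), CHST14 (r = 0.96) and DHDH (r = 0.959). BAX was closest to GCM1 (r = 0.973, rho = 1.0) and NME6 (0.936). MCL1 was closest to DAPP1 (0.938), KCTD7 (0.933) and TCF7 (0.926). These likenesses were high for BAD with ZCCHC17 (0.949) and for BCL2L11 with SNX27 (0.949), and they were lower for CASP8, with CLTRN (0.896), and for BAK1, with TTC38 (0.873). BCL2L1 was closest to DYNC1H1 (0.929) and BID to ICA1 (0.924). Each closest gene has the highest of 8999 values over 12 cows, and how high such a maximum runs by chance was not tested. Without the 2 cows farthest from the median, r with the closest gene was 0.74 (BAK1) to 0.956 (BAX).

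The levels of the marker lists in both diets are given beside those of the members, without a test of any list. Of 56 matched markers, 30 had a higher and 26 a lower mean in REST, 6 had an unadjusted p under 0.05 (of all named genes, 43.5% had a higher mean and 2.64% such a p), and none passed the threshold over all probes. Of the 6 fibroblast markers, 5 had lower means in REST (median log2 difference -0.63), and the mean of the list was 2.45 to 2.82 in CONT and 1.35 to 3.02 in REST. LUM, a collagen-binding proteoglycan, differed most (-0.84, standard error 0.24, adjusted p = 0.9999 with limma). All 6 endothelial markers had higher means in REST (median 0.43), with list means of -1.18 to 0.95 in CONT and 0.31 to 1.29 in REST. The macrophage list was 0.16 to 1.73 in REST and -0.22 to 0.69 in CONT. The neutrophil list, of 6 genes, covered 0.45 to 2.37 in CONT and -0.69 to 2.45 in REST, and the T cell list, of 7 genes, 0.68 to 1.09 and 0.65 to 1.07. The luminal epithelial list lay between 4.02 and 4.68 in CONT and between 4.16 and 4.83 in REST, and the myoepithelial list between 2.61 and 3.83 and between 2.60 and 3.53. The 4 plasma and B cell genes averaged -0.20 to 1.18 in CONT and 0.34 to 1.54 in REST, while MS4A1, a defining B cell gene outside this mean, cleared the background call on 0 arrays of CONT and 4 of REST, and FABP4 was 2.87 to 7.35 and 6.65 to 7.92. No marker list separated the groups, and the part of the mix of cells in the members' values was not tested.

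The rest of the pathway was examined through 7 lists with 66 other genes, of which 51 could be matched to probes. No gene passed the threshold over all probes. In 21 of the 51 the mean was higher and in 30 lower in REST, and 2 had an unadjusted p under 0.05, while 2.64% of all named genes did. These 2 were CASP6 and BIRC3.

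CASP6 (NM_001035419), an executioner caspase that cuts nuclear lamins, had log2 signals of 0.53 to 1.17 in CONT, with a median of 0.72, and of -0.26 to 0.61 in REST, with a median of 0.30. None of the REST cows reached the CONT mean, although the groups overlapped. The log2 difference was -0.55 (standard error 0.18), with an unadjusted p of 0.00966 and an adjusted p of 0.9999 (limma). It was -0.54, -0.52 and -0.40 inside slides 1, 2 and 3, and between -0.63 and -0.45 when single cows were left out. The dimmer CASP6 probe differed by -0.18. CASP9, the initiator caspase of the mitochondrial route, differed by -0.032 (standard error 0.20), and CASP2 did not clear the background call on a single array. CASP4, an inflammatory caspase, gave -0.32 (standard error 0.19).

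BIRC3 (NM_001035293), a ubiquitin ligase that restrains CASP8 activation downstream of the TNF receptor and is itself induced by NF-kB, had log2 signals of 2.54 to 3.62 in CONT, with a median of 2.72, and of 1.20 to 2.77 in REST, with a median of 2.04. Every REST value lay under the mean of CONT, and the log2 difference was -0.84 (standard error 0.30), with an unadjusted p of 0.0147 and an adjusted p of 0.9999 (limma). Its 4 probes gave -0.84, -0.81, -0.82 and -0.73. Inside slide 1 the difference was -0.10, inside slides 2 and 3 it was -0.91 and -0.97, and with slide as a block it was -0.69 (unadjusted p = 0.057, limma). In the same list, XIAP, which blocks caspases directly, gave 0.30 (standard error 0.19), and DFFB, the nuclease that cuts DNA in dying cells, gave -0.17 (standard error 0.19). The list had 13 matched genes, 5 of them with a higher mean in REST (median -0.074).

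In the death receptor arm that activates CASP8, 9 of 12 genes were matched, and 3 had a higher mean in REST. TNF, the cytokine, gave -0.90 (standard error 0.52), the decoy receptor TNFRSF10D gave 0.45 (standard error 0.32) and FAS gave -0.18 (standard error 0.26). The adaptor FADD gave 0.046 (standard error 0.19) and RIPK1 gave -0.027 (standard error 0.14). Among the other anti-apoptotic relatives, BCL2L2 had all 6 REST cows above the CONT mean (0.35, standard error 0.17), and BCL2A1, known from leukocytes, gave -0.55 (standard error 0.38). Of the other pro-apoptotic relatives, 6 of 11 were matched and 4 had a higher mean in REST, led by BCL2L15 (0.40, standard error 0.41), while BNIP3L, a receptor for the removal of mitochondria, gave 0.20 (standard error 0.15) and BOK -0.17 (standard error 0.22). The 16 matched regulators and partners of the members had 8 higher and 8 lower means (median -0.013). The ubiquitin ligase MDM2 gave 0.40 (standard error 0.21), and NFKB1, a subunit of NF-kB, gave -0.36 (standard error 0.19).

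**Figure D5:**
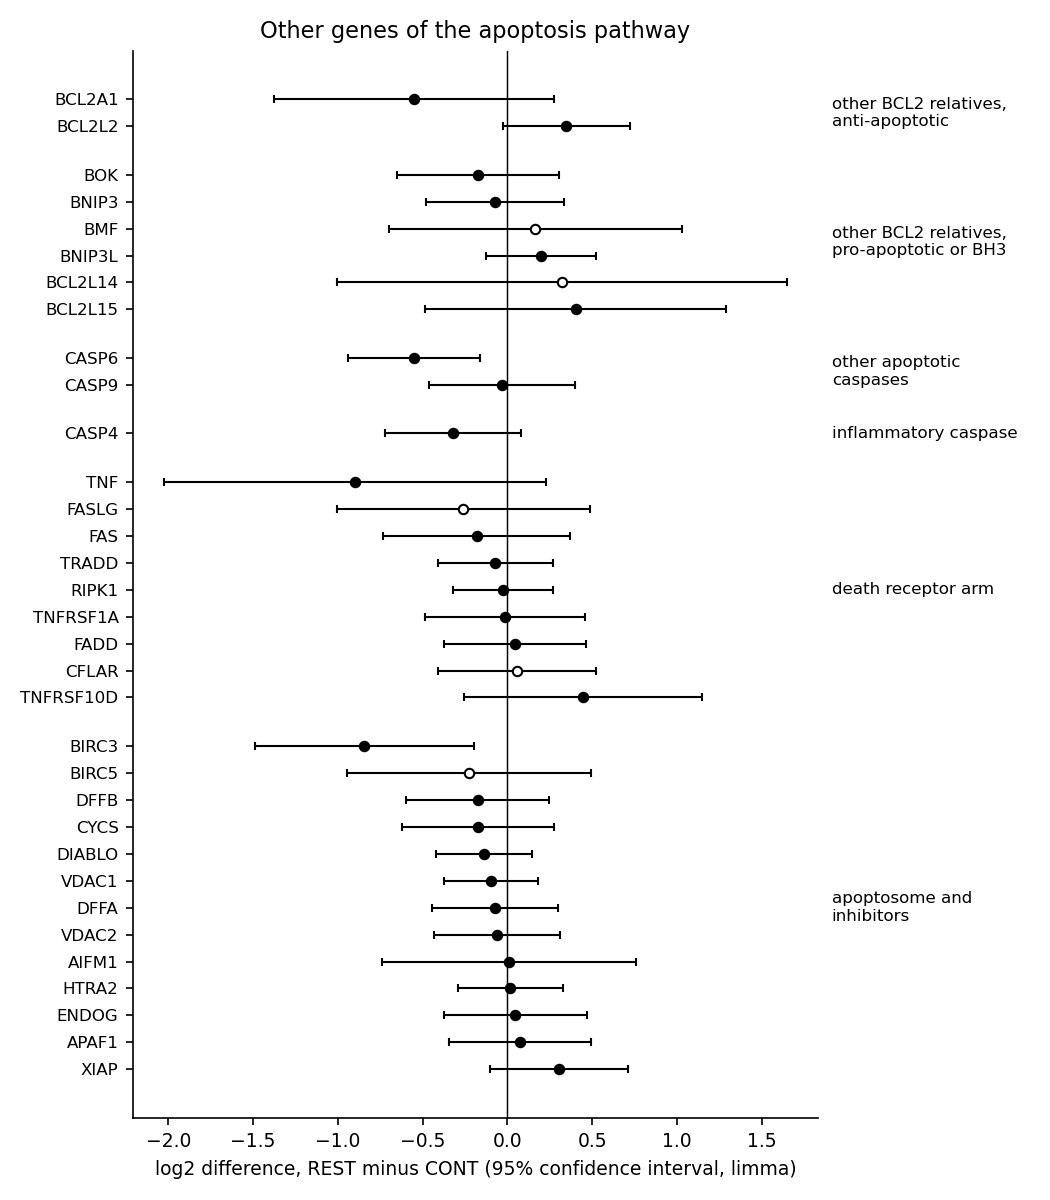
Log2 difference REST minus CONT (horizontal axis) with its 95% confidence interval from limma for selected other genes of the apoptosis pathway, 1 brightest probe a gene, with open circles for probes not well above background on all 12 arrays and CASP2, not well above background anywhere, left out. Of the genes drawn, CASP6 and BIRC3 have intervals that exclude 0 before any adjustment.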

How the data were processed

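The deposited files hold spot intensities from one-color Agilent bovine arrays, which the authors extracted with Agilent Feature Extraction (version 11.0.1.1) after background subtraction and detrending, without normalization between arrays. The series matrix holds the same intensities (largest difference 0.0). Non-control spots were kept, outlier spots were set to missing (no member probe was affected), and log2 intensities minus the 75th percentile of each array were averaged per probe. No filter on dim probes was used. Arrays correlated at 0.9327 to 0.9843. Probes were named through the RefSeq accession without version, for 26832 of 43653 probes. The array annotation and the RefSeq table (ARS-UCD2.0) differ in build, so genomic positions were left out.

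The diets were compared in limma 3.58.1 (R 4.3.3; lmFit, eBayes, two-sided), with Benjamini-Hochberg adjustment over all probes in place of the Westfall-Young adjustment of the study's methods, which was an alternative. Each gene is represented by its brightest probe on average over all arrays. Named genes are the members, pathway genes with an unadjusted p under 0.05 or among the 3 largest differences of their list (of those well above background on all 12 arrays), and the 3 genes most like each member; some of these are not reported here. CASP2, FADD and RIPK1 were named after their values were seen. The members and lists were chosen with earlier results of these data known. Correlations used 100000 within-group permutations. In simulated data with 43653 probes, 32% of 2-fold and 58% of 4-fold changes passed the threshold. Alternatives were quantile normalization, normexp (offset 50, median spot signal), a filter on dim probes, slide as a block, the mean over probes, an intensity trend, outlier spots retained, the series matrix values and leaving out each cow. The use of slides 2 and 3 only was chosen after seeing the data. The number of arrays limits the precision.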

Additional observations from a re-analysis of the deposited data

Results flagged for a closer look

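In 2 of the 40 sets of 6 values (20 member probes, each in both diets), a single cow was set apart from its group by Dixon's test at the 95% level, a number of sets that would also arise by chance (2). On the brightest BCL2L1 probe, CONT cow 5 had a log2 signal of 2.18, while the other CONT cows had 1.24 to 1.56. On the BCL2L11 probe, CONT cow 1 had -1.29, while the others had -2.23 to -2.09. The signal of either probe cleared the background call on every array.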

How the results depend on the processing

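No probe, and so no member probe, was called in the alternatives that were run over all probes, including Westfall-Young (lowest adjusted p 0.31, from 100 of 462 splits) and each cow left out. The mean over the probes of a gene was computed as a value without a test. The median difference of the 9 members lay between -0.078 and 0.12 over all settings. Differences near 0 changed sign without being called. With normexp, MCL1 became 0.042 and CASP8 -0.012. With slide as a block, BCL2 became 0.12, MCL1 0.12, BAX 0.13 and BAK1 0.023. With slides 2 and 3 only, BAX became 0.16 and CASP8 -0.0049, and averaging the 3 MCL1 probes gave 0.052. With single cows left out, the differences were -0.40 to 0.081 for BCL2, -0.14 to 0.13 for MCL1, -0.16 to 0.058 for BAK1, -0.048 to 0.10 for BAD, -0.035 to 0.092 for CASP8 and -0.0072 to 0.23 for BCL2L1, all with changes of sign. CONT cows 5 and 6 and REST cows 2, 5 and 6 each turned the sign of 2 or more members, and CONT cows 1 and 4 and REST cow 4 that of 1 member. BID and BCL2L11 kept their sign in all fits (-0.22 to -0.055 and 0.17 to 0.48 with single cows left out), though not inside every slide, and BAX (-0.26 to -0.012) kept it when single cows were left out. The cause of these changes was not tested. The dimmest BCL2L1 probe cleared the background call on only 2 arrays of CONT and 3 of REST. No paired analysis was possible because each cow is a separate animal and the labels give all of them the same replicate number, so that none are paired.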

Other observations

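The balance between pro- and anti-apoptotic members was described inside each array as a difference of log2 signals (mean ± SD, n = 6 per diet), where only the comparison of cows has a meaning. BAX minus BCL2 was -1.44 ± 0.75 in CONT and -1.47 ± 0.57 in REST, a change of -0.026. BAX minus BCL2L1 was -2.69 ± 0.43 in CONT and -2.94 ± 0.33 in REST, a change of -0.24. BAK1 minus MCL1 was -7.30 ± 0.69 in CONT and -7.32 ± 0.42 in REST, a change of -0.022. BCL2L11 minus MCL1 was -6.32 ± 0.78 in CONT and -5.97 ± 0.43 in REST, a change of 0.35. BCL2L11 minus BCL2 was -2.34 ± 0.80 in CONT and -1.89 ± 0.88 in REST, a change of 0.45. With single cows left out, this change was 0.22 (without CONT cow 5) to 0.76 (without REST cow 3), and that of BCL2L11 minus MCL1 was 0.19 (without CONT cow 5) to 0.60 (without CONT cow 1). The change of BAX minus BCL2 was -0.27 (without CONT cow 6) to 0.20 (without REST cow 3). That of BAX minus BCL2L1 was -0.36 (without REST cow 1) to -0.15 (without CONT cow 2). For BAK1 minus MCL1 it was -0.18 (without CONT cow 6) to 0.16 (without CONT cow 1). The cows of both groups overlapped in each of these differences, which were not tested.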
